A study of Mus musculus with 8 samples.

Results

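Sites of open chromatin that appeared in dendritic cells with Mx1-Cre deletion of Hdac1 and were missed in cells without it were collected from ATAC-seq of mouse spleen. In this assay a transposase inserts sequencing adapters into accessible DNA, and the authors deposited for each library a list of summits, the points of highest signal within the called peaks. There were 8 libraries, 2 for each combination of 2 cell types and 2 genotypes. Type 1 conventional dendritic cells (cDC1) were sorted as XCR1+CD11b- and type 2 cells (cDC2) as XCR1-CD11b+, both from lineage-negative CD11c+MHCII+CD64- cells. The genotype called WT here is HDAC1 floxed, with no Cre named in the labels, and the genotype called KO is HDAC1 Mx1-Cre. Every mouse, WT and KO, was given PolyI/C, which switches on Mx1-Cre, and the cells were sorted 2 weeks later. Mx1-Cre acts in many interferon-responsive cells besides dendritic cells, so the KO cells developed in mice in which other cells could also lack Hdac1.

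A gained site was defined by the presence of summits alone. Each list was shortened to its 61737 summits with the highest score, the length of the shortest list. The lowest score kept thus differed between libraries. It was 4.93 and 4.95 in WT and 4.53 and 7.21 in KO cDC1, and 3.56 and 1.31 in WT and 4.01 and 4.92 in KO cDC2. In cDC2 both KO limits lay above both WT limits, so limit and genotype cannot be told apart there. Summits of any library within 250 bp of each other were chained into 112443 sites. A site was called gained in a subset when both KO libraries and neither WT library of that subset had a summit in it, with no WT summit of that subset within 1 kb. By this rule 4057 sites were gained, 2054 of them in cDC1 and 2082 in cDC2. In both subsets 79 were gained. These were 3.85% of the cDC1 set, where 1.85% of all sites were gained in cDC2, and 3.79% of the cDC2 set, where 1.83% of all sites were gained in cDC1. The ranks in the KO and WT libraries of a subset chose its members, so those values are given as a description and carry no test.

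HDAC1 removes acetyl groups from the tails of histones and works in the Sin3, NuRD and CoREST repressor complexes. Loss of acetyl groups makes nucleosomes bind DNA more tightly and is associated with closed, silent chromatin, while regulatory DNA that is acetylated is usually open to the transposase. HDAC2, its close relative, sits in the same complexes and can replace it in many cells. In the spleen, cDC1 take up dead cells and present their antigens to CD8 T cells, and cDC2 mainly prime CD4 T cells.

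The gained sites that fell on annotated start sites give the clearest view of single loci. Of 32817 promoter windows of RefSeq, each from 250 bases before to 50 after a start site, 95 were touched by 88 sites gained in cDC1 and 76 by 67 sites gained in cDC2. Shown here are 8 promoters from GRCm38.p6, chosen after their values were seen: the best-ranked one in cDC1 (Epha4), genes of immune cells (Cd96, Spib, Pik3cd), another cDC1 gain (Lypd6) and 3 of the 4 promoters gained in both subsets (Eda2r, Gdf7, Cldn34c1). Each line gives the 200 bases before the start site, 5′ to 3′ on the strand of the gene. Capitals mark the stretch between the summits of both KO libraries of cDC1 for the first 3 and of cDC2 for the others. At Epha4 both summits lay on the same base.
Epha4, chr1:77515089-77515288, minus strand: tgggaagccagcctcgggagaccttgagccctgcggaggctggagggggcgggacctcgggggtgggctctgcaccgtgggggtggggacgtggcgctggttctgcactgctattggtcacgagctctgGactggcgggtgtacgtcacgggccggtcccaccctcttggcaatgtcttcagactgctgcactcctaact
Lypd6, chr2:50066229-50066428, plus strand: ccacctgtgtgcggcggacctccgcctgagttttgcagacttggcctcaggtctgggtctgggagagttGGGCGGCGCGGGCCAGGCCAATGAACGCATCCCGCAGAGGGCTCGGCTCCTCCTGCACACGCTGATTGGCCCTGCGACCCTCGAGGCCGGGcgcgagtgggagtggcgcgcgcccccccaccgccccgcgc
Cd96, chr16:46120249-46120448, minus strand: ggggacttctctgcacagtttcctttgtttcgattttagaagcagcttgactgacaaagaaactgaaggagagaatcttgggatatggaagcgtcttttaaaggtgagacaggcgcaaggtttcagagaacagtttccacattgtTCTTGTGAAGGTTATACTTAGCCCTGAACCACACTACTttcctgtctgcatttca
Spib, chr7:44532072-44532271, minus strand: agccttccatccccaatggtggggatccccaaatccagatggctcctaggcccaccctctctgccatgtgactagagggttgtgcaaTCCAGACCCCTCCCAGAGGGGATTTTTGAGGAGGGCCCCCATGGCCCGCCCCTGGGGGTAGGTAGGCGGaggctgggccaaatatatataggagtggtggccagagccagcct
Pik3cd, chr4:149676090-149676289, minus strand: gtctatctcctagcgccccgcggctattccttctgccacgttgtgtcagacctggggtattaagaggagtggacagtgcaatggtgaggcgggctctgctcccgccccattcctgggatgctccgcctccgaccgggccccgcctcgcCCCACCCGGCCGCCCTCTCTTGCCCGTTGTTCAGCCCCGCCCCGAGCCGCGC
Eda2r, chrX:97377210-97377409, minus strand: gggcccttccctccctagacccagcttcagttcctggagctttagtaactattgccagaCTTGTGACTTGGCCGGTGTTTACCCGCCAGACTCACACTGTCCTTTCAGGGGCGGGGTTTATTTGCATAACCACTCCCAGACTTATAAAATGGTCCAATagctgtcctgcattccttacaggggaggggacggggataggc
Gdf7, chr12:8301955-8302154, minus strand: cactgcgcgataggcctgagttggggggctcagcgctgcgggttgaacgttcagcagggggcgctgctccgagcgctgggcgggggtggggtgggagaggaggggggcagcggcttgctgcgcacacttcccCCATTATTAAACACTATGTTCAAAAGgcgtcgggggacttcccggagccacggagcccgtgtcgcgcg
Cldn34c1, chrX:123103323-123103522, plus strand: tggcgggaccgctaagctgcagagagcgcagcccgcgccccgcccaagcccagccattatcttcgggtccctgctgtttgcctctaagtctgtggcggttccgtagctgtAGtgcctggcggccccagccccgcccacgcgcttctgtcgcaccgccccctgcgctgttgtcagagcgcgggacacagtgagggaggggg

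Epha4, an ephrin receptor of the tyrosine kinase family, held the best-ranked gained site of cDC1 (chr1:77514790-77515261). Its score, the authors' −log10 value of how far a peak stands above background in its own library, was 18.1 and 27.4 in KO cDC1. In WT cDC1 replicate 1 had a summit of score 3.25, too low for the shortened list, and replicate 2 had none. The cDC2 libraries, which played no part in choosing this site, scored 8.74 and 6.75 in WT, and 21.8 and 32.2 in KO. The summits of KO cDC1 stood 71 bases before the start. Scores rise with sequencing depth, which is unknown for these libraries. Scores of different libraries set side by side, here and below, are therefore descriptions, and their gaps do not measure the size of a difference. Libraries are better compared through ranks, where 1 is the highest score. In cDC2 this site ranked 35904 and 37855 in WT and 17901 and 10746 in KO, so both KO libraries ranked it better than both WT libraries.

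Lypd6, a lipid-anchored protein of the Ly6 family, had summits of score 16.5 and 12.4 in KO cDC1 at chr2:50066298-50066776 and none in either WT list. In cDC2 it had 11.8 and 4.92 in KO and 3.02 in 1 of the WT libraries. A further site gained in cDC1, 12285 bp outside the same gene (chr2:50054109-50054122), had 13.6 and 18.3 in KO cDC1 and no summit in the other 6 libraries. Cd96, a receptor of T and NK cells, had 12.5 and 10.5 at its start site in KO cDC1 (chr16:46120084-46120303) against 3 and 3.79 in WT. Inside Cd96 lay 2 more sites gained in cDC1, so 3 of the 4 sites given to this gene were gained.

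Spib, an Ets-family transcription factor of B cells and plasmacytoid dendritic cells, was gained in cDC2. Its promoter site (chr7:44532116-44532184) scored 8.71 and 10.5 in KO cDC2, and none of the other 6 libraries had a deposited summit there. Pik3cd, the catalytic p110-delta subunit of a lipid kinase of leukocytes, scored 7.97 and 13.5 in KO cDC2 (chr4:149676090-149676141). Neither WT cDC2 nor WT cDC1 had a deposited summit at Pik3cd, and KO cDC1 had 3.24 and 14. At both promoters, then, every deposited summit belonged to a KO library.

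The 4 promoters gained in both subsets were those of Eda2r, Gdf7, Cldn34c1 and the predicted gene Gm12236. Cldn34c1, a claudin-family gene on the X chromosome, had the best-ranked gained site of cDC2 (chrX:123103433-123103516), with 30.7 and 18.2 in KO cDC2, 5.58 and 11.6 in KO cDC1 and no deposited summit in any WT library. Eda2r, a receptor of the TNF receptor superfamily, had 11.5 and 7.54 in KO cDC1, 4.25 and 12.2 in KO cDC2 and none in WT. Gdf7, a ligand of the bone morphogenetic protein family, had 8.16 and 9.92 in KO cDC1 against 4.43 and 4.32 in WT cDC1, and 5.85 and 10.2 in KO cDC2 against none in WT cDC2. At Eda2r, Cldn34c1 and Gm12236 no WT library of either subset had a deposited summit, while at Gdf7 the WT cDC1 lists held weak summits.

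The promoters touched by gained sites were richer in GC and in GC boxes than all windows, and less so than the promoters open in every library. The median GC content was 60.7% in the 95 windows of cDC1 and 56% in the 76 of cDC2, against 52.7% in all windows and 62.3% in the 8956 windows with a site in all 8 libraries. The GC box GGGCGG, the site of Sp1-type factors, occurred on either strand in 64.2% of the cDC1 windows and 52.6% of the cDC2 windows, against 35.6% of all windows and 70.9% of those with a site in all libraries. The CCAAT box, searched as CCAAT, occurred in 40% and 25% of the gained windows and 37.4% of all. The pair of interferon response half-sites GAAANNGAA occurred in 8.42% and 15.8%, against 8.55% of all windows. The TATA box TATAAA was in 8.42% and 15.8%, against 13.6%, and the AP-1 site TGANTCA in 8.42% and 2.63%, against 7.81%. An ETS site, searched only as GAGGAA, was in 30.5% and 34.2%, against 28.3%, and the E-box CACGTG in 11.6% and 6.58%, against 7.15%. Each share covers windows of equal length and both strands, the motifs may overlap, and a match describes the letters only.

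The number of gained sites has to be read against what other pairs of libraries give. In cDC1, 1.83% of all sites were gained and 1.67% (1878) were lost, that is, present in both WT and neither KO library by the same rule. In cDC2, 1.85% were gained and 1.27% (1429) were lost. Where 1 KO and 1 WT library were set against the other KO and WT library, the mixed pairs shared 1188, 1510, 1192 and 1548 sites in cDC1 and 1456, 1239, 1124 and 1386 in cDC2. With the 1 kb distance, the gained count was the highest of the 6 in each subset, and the lowest count of a mixed pair was 1124. Without that distance more sites were lost (2560) than gained (2437) in cDC1, so the order there depended on this setting. The difference between the gained and the mixed counts was not tested, and a gained site is not by itself a site known to have opened. In these bulk samples fewer cells with an open site and less signal per cell cannot be told apart. The plot of sites by pair of libraries shows these 12 counts.

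**Figure D1:**
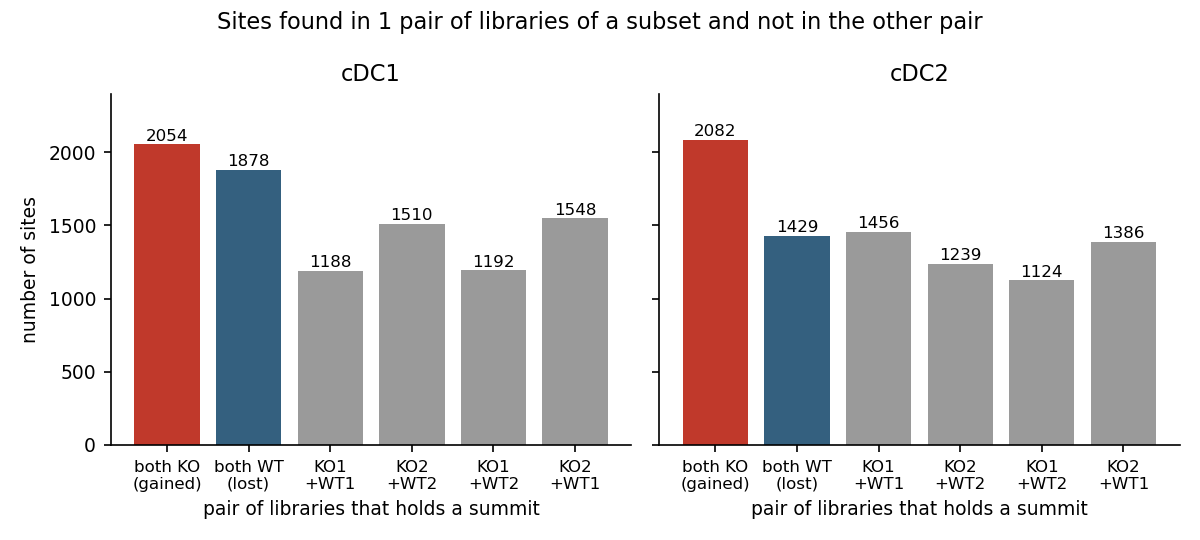
Number of sites with a summit in both libraries of 1 pair and in neither library of the other pair of the same subset, with no summit of the other pair within 1 kb. Bars are counts for the pair of KO libraries (red), of WT libraries (blue) and the 4 mixed pairs of 1 KO and 1 WT library (grey), named by replicate number. The red bars stand at 2054 and 2082 and the grey ones between 1124 and 1548.

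The sets also differed in how many sites the subsets had in common. Besides the 79 gained sites, 50 lost sites were common to cDC1 and cDC2, 2.66% of the lost sites of cDC1 and 3.5% of those of cDC2. The mixed pairs with the same replicate numbers in both subsets had 18, 24, 25 and 21 sites in common, 1.36% to 2.1% of the cDC1 sets and 1.24% to 2.22% of the cDC2 sets. These differences were not tested. Without the 1 kb distance, 2437 sites were gained in cDC1 and 2614 in cDC2, and 2560 and 2157 were lost.

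Gained sites were weak next to all summits kept, as were the other sets found by presence in 2 libraries and absence from 2. The median of their mean rank in the KO libraries was 48626 in cDC1 and 48681 in cDC2 of 61737, and only 49 (2.39%) and 37 (1.78%) stood in the better-ranked part before the middle of the lists. Lost sites had medians of 48784 and 48083, and sets from mixed pairs 49910 to 50086 in cDC1 and 48836 to 49206 in cDC2, so gained sites did not rank worse than sets from mixed pairs. Their median score was 6.48 and 9.97 in KO cDC1, against 11.6 and 17.1 for all summits kept, and 6.04 and 6.9 in KO cDC2, against 11.6 and 12.3. The histogram of mean ranks shows this crowding toward the end of the lists. The limits of the rule passed between near-equal sites. The 5 members just inside the distance had their nearest WT summit at 1003 to 1012 bp in cDC1, and the 5 sites just outside it at 992 to 1000 bp. In cDC2 those distances were 1010 to 1017 bp and 995 to 1000 bp. The 5 members nearest the end of the lists had a worse KO rank of 61717 to 61733 in cDC1 and 61718 to 61731 in cDC2, and the next 5 sites beyond it 61744 to 61757 and 61744 to 61799.

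**Figure D2:**
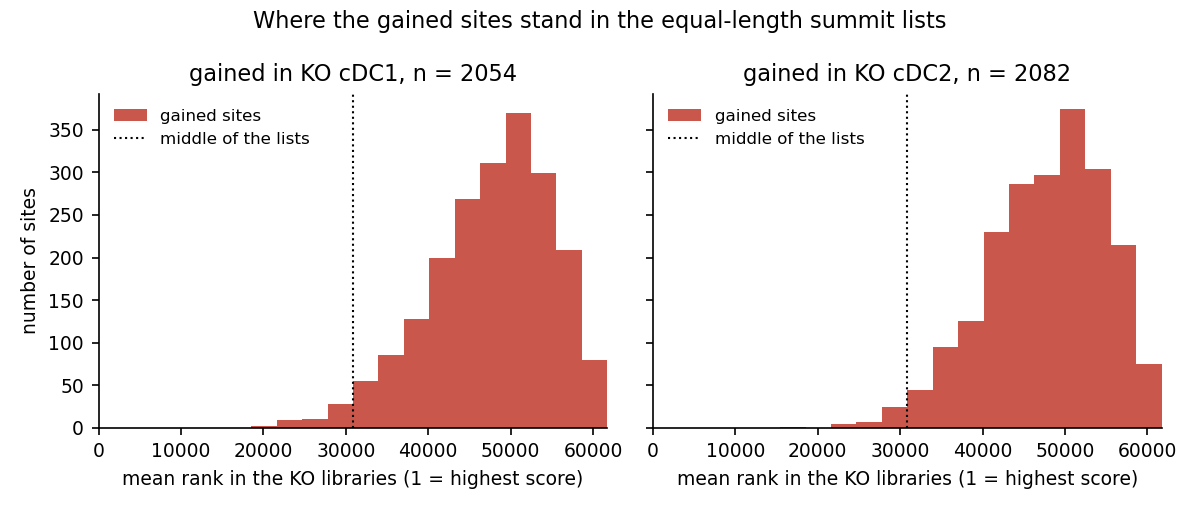
Histograms of the mean rank of each gained site over the 2 KO libraries of its subset (x axis, 1 is the highest score), with the number of sites on the y axis. The dotted line marks the middle of the lists, and 49 of 2054 and 37 of 2082 sites lie to its left.

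Absence from the shortened WT lists was often absence by rank and not by call. Of the 2054 sites gained in cDC1, 1249 (60.8%) had a lower-ranked deposited summit of WT cDC1 within 1 kb, in replicate 1 at 818 sites and in replicate 2 at 816. The other 805 had none. In cDC2, 308 of 2082 sites (14.8%) had a lower-ranked WT summit and 1774 had none. The cDC2 share cannot be set against the cDC1 share, because the WT cDC2 lists held 4872 summits below the limit of the shortened lists, all in replicate 1, and the WT cDC1 lists 30133.

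The strongest gained sites of cDC1 illustrate both kinds. Zmat4, a zinc finger gene, had 19.1 and 18.6 in KO cDC1 at chr8:23669138-23669165 and no deposited summit in any of the other 6 libraries. Cacnb3, a calcium channel beta subunit, had 14.8 and 25.1 at chr15:98640341-98640359 against 3.34 in 1 WT library. Cldn4, a tight junction claudin, had 16.5 and 20.9 at a site 10668 bp outside the gene (chr5:134957589-134957615) against 4.47 and 3.58 in WT. Cacnb3, Cldn4 and Zmat4 had no summit in any cDC2 library. In all 10 of the best-ranked sites of cDC1 the WT cDC1 scores that existed lay between 3.01 and 4.56, and the KO cDC1 scores between 11.6 and 35.2. The choice of sites set this order in advance, since WT cDC1 summits kept in the lists, with scores from 4.93 and 4.95 upward, were not allowed.

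Fam78b and Pakap, like Epha4, had better ranks in both KO than in both WT libraries of cDC2, the subset that did not choose them. Fam78b (chr1:167000850-167001056) had 20.8 and 22.3 in KO cDC1, and in cDC2 it had 9.18 and 9.43 in WT and 34.1 and 16.4 in KO. Pakap, a gene for an anchoring protein of protein kinase A, had 14.6 and 27 in KO cDC1 at chr4:57867668-57867725, while in cDC2 it had 12.4 and 11.7 (WT) and 19.1 and 18.6 (KO). The plot of the best-ranked sites shows these values in all 8 libraries.

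**Figure D3:**
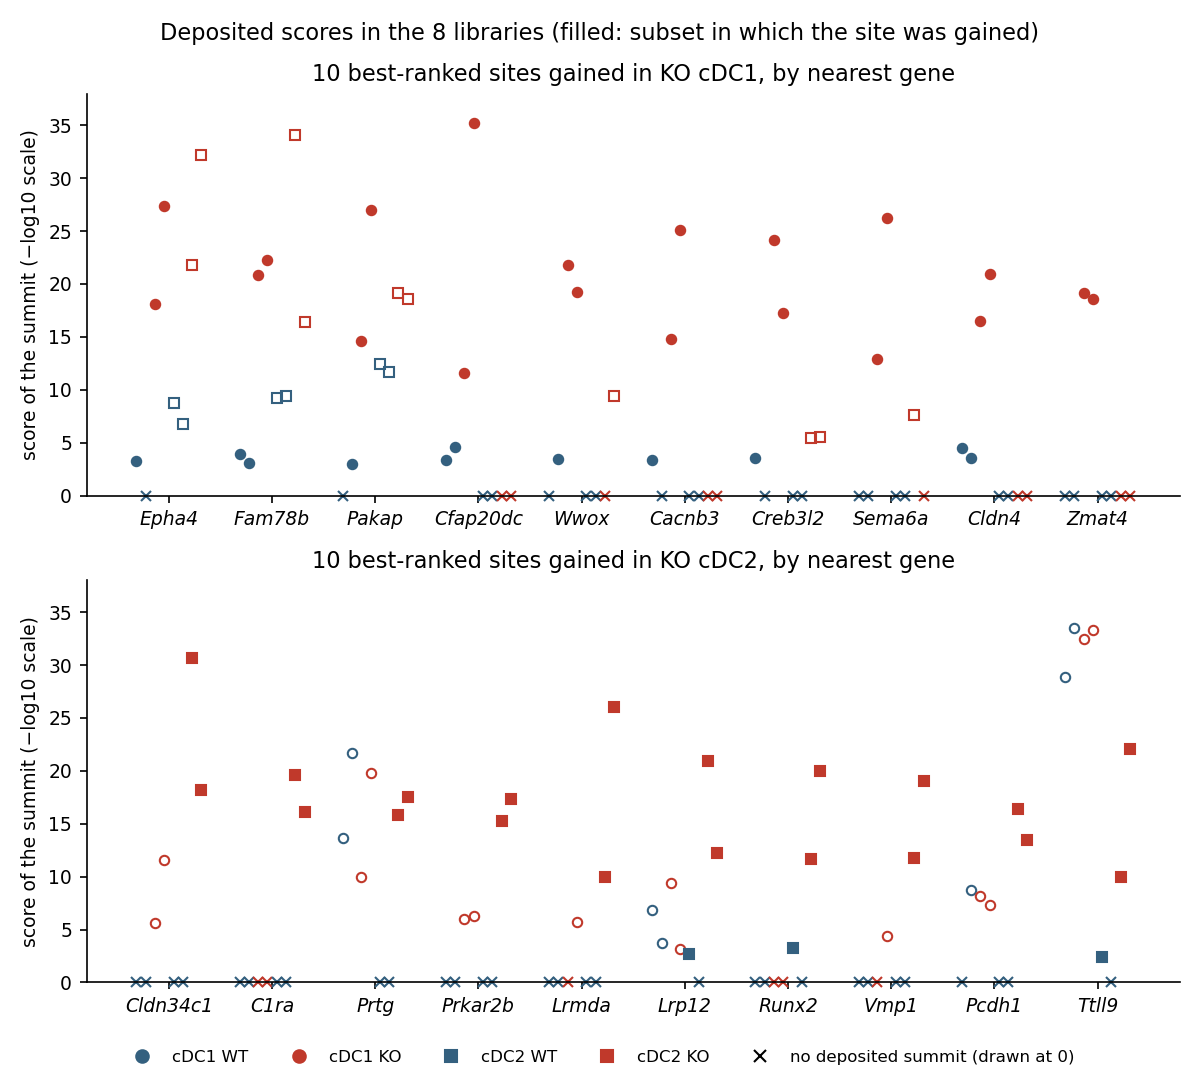
Deposited score (y axis, −log10 scale) of the best summit within 250 bp of the 10 best-ranked gained sites of cDC1 (top) and cDC2 (bottom), named by the nearest gene, with 1 symbol per library in the order WT, KO of cDC1 (circles) and WT, KO of cDC2 (squares). Red is KO and blue is WT, filled symbols are the subset in which the site was gained, and crosses at 0 mark libraries with no deposited summit there. At Epha4, Fam78b and Pakap the open red squares stand above the open blue ones, while Prtg and Ttll9 carry summits in all 4 cDC1 libraries.

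Among the strongest gained sites of cDC2, C1ra, a serine protease of the complement system, had 19.6 and 16.1 in KO cDC2 at chr6:124522231-124522289 and no deposited summit elsewhere. Runx2, a transcription factor of bone formation that plasmacytoid dendritic cells also use, had 11.7 and 20 at chr17:44725289-44725294, against 3.3 in WT replicate 1, and no summit in cDC1. Prkar2b, a regulatory subunit of protein kinase A, had 15.3 and 17.3 in KO cDC2 and 5.98 and 6.24 in KO cDC1 (chr12:31973673-31973712), with none in any WT library. Ttll9, a tubulin-modifying enzyme, was of another kind: its site (chr2:152991687-152991756) had 9.97 and 22.1 in KO cDC2 and 2.38 in 1 WT cDC2 library, but 28.9 and 33.5 in WT cDC1 and 32.5 and 33.3 in KO cDC1. In cDC1 the site was thus open in both genotypes.

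Part of the gained sites were open in all libraries of the other subset, a smaller share than among all sites. Of the sites gained in cDC1, 562 (27.4%) had a summit in all 4 cDC2 libraries and 667 (32.5%) in none, against 36.2% and 21.9% of all sites. Of those gained in cDC2, 372 (17.9%) had a summit in all 4 cDC1 libraries and 830 (39.9%) in none, against 37.2% and 23.6% of all sites. In sets from mixed pairs, 16.6% to 25.6% (cDC1) and 15.7% to 20.6% (cDC2) had a summit in all 4. Zeb2, a transcription factor of cDC2, gained 2 sites in cDC1, both inside the gene, and the better-ranked one (chr2:45089481-45089767) had 8.07 and 12.7 in KO cDC1, none in WT cDC1, and 9.18, 9.98, 5.05 and 12.5 in the 4 cDC2 libraries. Adgre1, which encodes the macrophage marker F4/80, had 5.54 and 11.4 in KO cDC1 at chr17:57358453-57358721, 4.78 in 1 WT cDC1 library, and 23.7, 13, 13 and 19.4 in cDC2. In the other direction, a site of Arhgef10l (chr4:140615584-140615632) had 5.13 and 7.78 in KO cDC2 and 33.6, 39.8, 39.6 and 39 in the cDC1 libraries. Cadm1, an adhesion molecule of cDC1, had 5.13 and 13 in KO cDC2 at chr9:47634856-47634994, 3.56 in 1 WT cDC2 library, and 11.6, 17.2, 19.6 and 13.1 in cDC1.

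Whether a genotype difference was also present in the subset that had not been used to choose the sites was measured from the share of sites with a summit. Sites gained in cDC1 had one in 43.6% and 43% of cases in WT cDC2 and in 50.6% and 52.7% in KO cDC2. Sites gained in cDC2 had one in 33.2% and 32.7% of cases in WT cDC1 and in 40.3% and 42.1% in KO cDC1. In both directions the KO libraries lay above the WT libraries without overlap. The mean was 51.7% ± 1.51 in KO and 43.3% ± 0.379 in WT cDC2 (SD, n = 2), a difference of 8.35 points, and 41.2% ± 1.22 against 33% ± 0.374 in cDC1, a difference of 8.24 points. Without KO replicate 2 of cDC1, whose list was the longest, the first difference was 5.46 points. The second was 5.01 points without KO replicate 1 of cDC2 and 4.4 points without KO replicate 2.

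With 2 libraries against 2 the 2-sided exact permutation test cannot go below 0.333, and both differences gave p = 0.333. With genotype permuted within each subset over all 8 libraries the mean difference of 8.29 points gave an exact permutation p = 0.0556, the smallest possible, and 0.167 after Benjamini-Hochberg adjustment over these 3 results, so none passed 0.05. The labels do not say that libraries of a group came from separate animals, so these p-values measure only the spread between libraries, which may be technical. Nor do they say whether cDC1 and cDC2 libraries came from the same animals. The test over all 8 libraries treats its 2 parts as independent, although the libraries read in 1 part chose the sites of the other. The sites were not chosen again for each relabelling. The p-value of 0.0556 may therefore be too small even if the subsets came from separate animals. If they share animals, the other subset is not an independent check and that p-value is too small. Over all sites the libraries had summits in 54.2% to 54.8%, a range of less than 1 point. The equal length of the lists nearly fixes this share, so it cannot show whether libraries differ at weak sites.

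Site sets chosen in the same way from other pairs gave smaller differences in the direction of their own libraries. Lost sites differed by 3.43 points (cDC1 sites, measured in cDC2) and 4.79 points (cDC2 sites, measured in cDC1), with WT above KO. Sets from mixed pairs, read in libraries with the same genotype and number of the other subset, differed by 2.31, -0.596, 1.47 and 1.94 points when chosen in cDC1 and by 0.0687, 2.02, 1.47 and 2.92 points when chosen in cDC2. Each side of a mixed set holds 1 KO and 1 WT library, so a general KO excess cancels in these values. Read by genotype, every mixed set chosen in cDC1 had higher shares in both KO than in both WT cDC2 libraries. In the KO2+WT1 set these were 38.5% and 40.8% against 36.6% and 35%. Mixed sets chosen in cDC2 went either way in cDC1. KO1+WT1 had 37.9% and 37.6% (KO) against 39% and 39.1% (WT), and KO2+WT2 35.1% and 38.8% against 33.5% and 33.8%. The difference between gained and mixed sets was not tested. The plot of shares by library shows all 48 values.

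**Figure D4:**
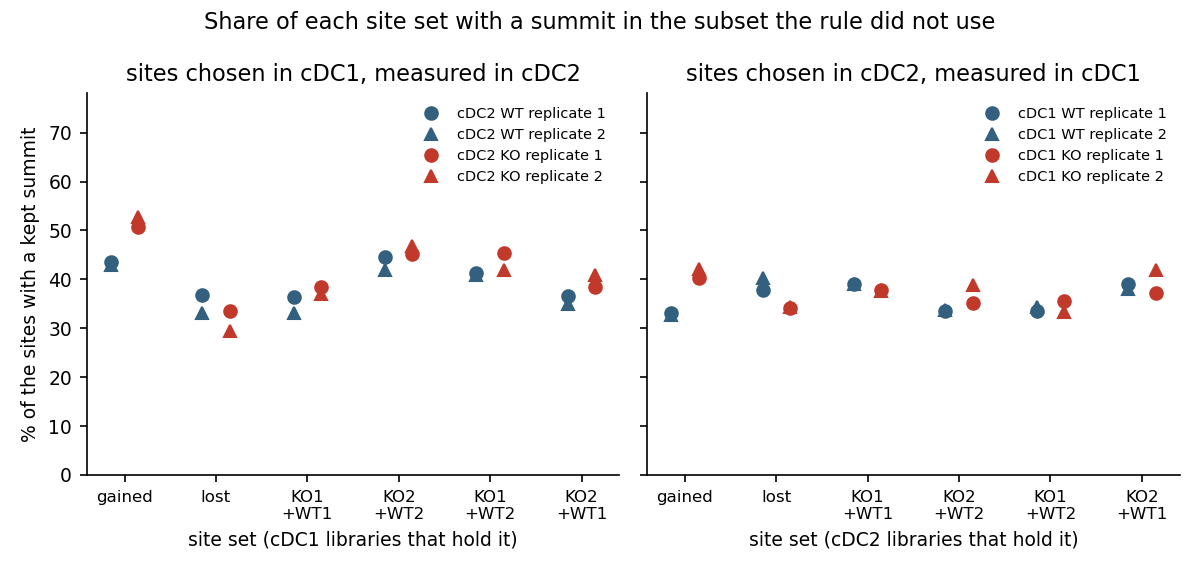
Percent of each site set with a summit in the kept list (y axis) of each of the 4 libraries of the subset that did not choose the set, for sets chosen in cDC1 (left) and in cDC2 (right). Blue is WT, red is KO, circles are replicate 1 and triangles replicate 2, and the sets on the x axis are named by the pair of libraries that holds them. In the gained sets the red symbols (50.6% and 52.7%, and 40.3% and 42.1%) lie above the blue ones (43.6% and 43%, and 33.2% and 32.7%).

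Counted site by site, 486 sites gained in cDC1 (23.7%) had a summit in more KO than WT libraries of cDC2 and 201 (9.79%) in more WT than KO. Among all sites these shares were 17.8% and 17.7%, and in sets from mixed pairs of cDC1 they were 16.7% to 18.5% and 11% to 13.5%. For the sites gained in cDC2 the numbers in cDC1 were 514 (24.7%) and 224 (10.8%), against 16.6% and 16.4% of all sites and 16.2% to 17.5% and 11.7% to 17.9% in sets from mixed pairs. In both subsets the gained set had the higher share with more KO summits and the lower share with more WT summits than each of the 4 mixed sets. The strength of summits showed the same order. Of the 562 sites gained in cDC1 with a summit in all 4 cDC2 libraries, 146 (26%) had better ranks in both KO than in both WT libraries, against 18.9% of all sites with such summits, and 65 (11.6%) had the opposite order, against 17.9%. Of the 372 sites gained in cDC2 with a summit in all 4 cDC1 libraries, 104 (28%) had better ranks in both KO libraries, against 19.5%, and 51 (13.7%) in both WT libraries, against 19.9%. Lost sites had the reverse, with better KO ranks at 10.7% and 13.1% and better WT ranks at 31.8% and 27.7%. In sets from mixed pairs the better KO ranks ranged from 16.6% to 23% when chosen in cDC1 and from 11.7% to 19.8% when chosen in cDC2.

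The 79 sites gained in both subsets included several with no deposited WT summit at all. Cacnb4, another calcium channel beta subunit, had 12 and 18.8 in KO cDC1 and 7.56 and 10.2 in KO cDC2 at chr2:52673249-52673362. Atp13a4, a P-type ATPase, had 14.7 and 18.3, and 6.04 and 8.91, at chr16:29451835-29451895. Gdf6, a ligand related to Gdf7, had 12.6 and 9.89, and 17 and 5.39, at chr4:9859863-9859923. Lag3, an inhibitory receptor that binds MHC class II, had 8.63 and 7.21, and 7.97 and 9.39, at chr6:124910196-124910249. None of these 4 sites had a summit in any of the 4 WT lists. Gnb3, a G protein beta subunit, had 10 and 17.1 in KO cDC1 and 11.9 and 15.2 in KO cDC2 (chr6:124840372-124840429), with 2.85 in 1 WT cDC2 library. Csf1r, the receptor for macrophage colony-stimulating factor, had 6.14 and 16.3, and 5.04 and 11.8, inside the gene on chromosome 18, with 4.39 in 1 WT cDC1 and 3 in 1 WT cDC2 library.

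Fewer of the gained sites than of all sites lay near gene ends, as in the lost and mixed sets found by the same rule. Within 1 kb of either end of a protein-coding gene were 186 (9.06%) of the sites gained in cDC1 and 164 (7.88%) of those gained in cDC2, against 16.1% of all sites and 31.1% of the 29645 sites present in all 8 libraries. Inside genes and further from the ends were 49% and 49.9%, and outside genes 41.9% and 42.3%. Sites found in any 2 of the 4 libraries of a subset, without the distance rule, were near gene ends in 10.6% (cDC1) and 13% (cDC2) of cases. Lost sites were there in 4.58% and 4.76%, and sets from mixed pairs in 4.84% to 8.84% (cDC1) and 4.76% to 8.72% (cDC2). The share in the gained set of cDC1 was thus slightly above the highest of the mixed pairs, and that in cDC2 lay within their range. Both were above the shares of lost sites. The annotation used has no exons, so exonic, intronic and untranslated positions were not told apart.

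**Figure D5:**
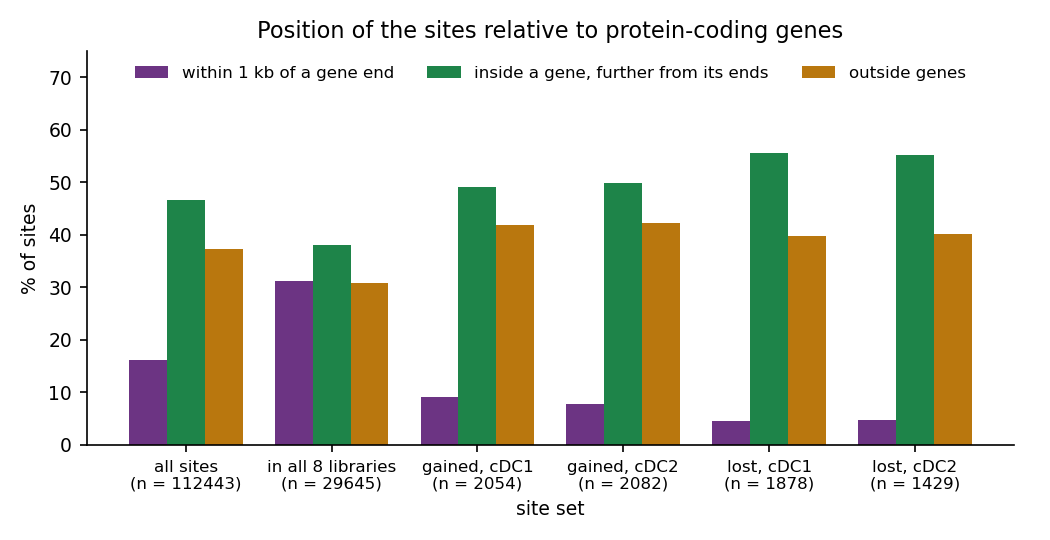
Percent of sites (y axis) within 1 kb of a gene end, inside a gene further from its ends, or outside genes, for all sites, sites present in all 8 libraries, and gained and lost sites of each subset (x axis, with the number of sites). The first bar falls from 31.1% in sites present in all libraries to 9.06% and 7.88% in gained sites and to 4.58% and 4.76% in lost sites.

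No chromosome stood far apart. Gained sites made up 1.47% (X) to 2.15% (chromosome 4) of the sites of a chromosome in cDC1 and 1.34% (chromosome 18) to 2.35% (chromosome 11) in cDC2, and the 14 sites on the Y chromosome held none. The median span between the outermost summits of a gained site was 85 bp in cDC1 and 77 bp in cDC2, against 68 bp for all sites of either subset. All sites include those with a single summit, while a gained site holds summits of both KO libraries. The spans are therefore not like for like.

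Gained sites were spread thinly over many genes. Given to the nearest protein-coding gene at most 50 kb away, those of cDC1 fell on 1589 genes and those of cDC2 on 1622, with at most 4 sites of a subset per gene. In cDC1, 1423 of the genes had a single site, and in cDC2 1465 had. Gained sites of both subsets occurred at 298 genes. Long genes with many sites led the count of sites gained in either subset, which were 4057 of all 112443 sites. Tenm4, a teneurin adhesion molecule of 740 kb, had 7 gained of 49 sites. Foxp1, a transcription factor of lymphocyte development, had 6 of 117, Fbxl17, a subunit of a ubiquitin ligase, 6 of 47, and Pakap 6 of 40. Slc8a1, a sodium-calcium exchanger, and Wwox, an oxidoreductase gene of 913 kb, had 5 each.

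Some short genes had a large part of their sites gained in either subset, against 4057 of 112443 sites in all. They are high values among 2913 genes with a gained site. At genes with few sites, 1 site moves the share far, and these shares were not tested. Pdgfrb, the receptor for platelet-derived growth factor B on chromosome 18, is 39.9 kb long and had 5 gained of 10 sites, 4 of them in cDC2, 2 in cDC1 and 1 of these in both. Csf1r, its neighbour, had 2 of 11. Il13, a cytokine of type 2 immunity of only 3.38 kb, had 3 of 5, all in cDC1. At Il13 the site inside the gene (chr11:53632269-53632343) had 6.93 and 7.39 in KO cDC1 and no other deposited summit. A site 3177 bp outside (chr11:53637875-53637884) had 9 and 9.51 and again no other. The third (chr11:53627982-53628081) had 7.45 and 12.8 against 4.21 and 4.88 in WT cDC1, and 4.48, 10.6, 10.5 and 14.6 in cDC2. Krt8, an epithelial keratin, had 3 of 4 sites gained, 2 in each subset and 1 in both. Krt8 had summits at 2 and 2 of its sites in WT cDC1 and 4 and 4 in KO cDC1, and in cDC2 at none in either WT library and at 2 in each KO library.

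Genes that define the subsets were not set apart. The cDC1 identity list had 6 of its 271 sites gained in cDC1 (2.21%, against 1.83% of all sites) and 3 in cDC2 (1.11%, against 1.85%). Those in cDC1 lay at Batf3, the transcription factor needed by cDC1, Tlr3 and Tlr11, receptors for microbial RNA and profilin, Xcl1, Naaa and Cd8a, and those in cDC2 at Cadm1, Snx22 and Itgae. At Batf3 the site (chr1:191106070-191106083) had 5.57 and 7.71 in KO cDC1 against 4.75 in 1 WT library, and at Tlr3 (chr8:45399160-45399245) 4.85 and 9.73 against 4.29 in 1 WT library. Both were sites at the lower end of the lists. The cDC2 identity list had 5 of 219 (2.28%) gained in cDC1, at Zeb2, Csf1r and Sirpa, and 4 (1.83%) in cDC2, at Zeb2, Csf1r, Sirpa and Clec12a.

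A list that joined genes of conventional dendritic cells in general with genes of antigen presentation had no site gained in cDC1 of 212 and 3 in cDC2 (1.42%). These were 1 site near Kit and 2 at Ciita, the master regulator of MHC class II genes. The Ciita site 57 bp outside the gene (chr16:10479873-10480042) had 5.29 and 6.63 in KO cDC2, 2.75 in 1 WT cDC2 library and 15.9, 16.1, 9.44 and 12.3 in the cDC1 libraries. The one inside the gene (chr16:10522959-10522963) had 8.06 and 5.1 in KO cDC2 and no other deposited summit. The 2 Ciita sites differed in cDC1, where one was open in all libraries and the other in none. Maturation and cytokine genes had 2 of 260 gained in cDC1 (0.769%), near Il1b and Il12a, and none in cDC2. Interferon-stimulated genes had 2 of 102 (1.96%) in cDC1, at Ifih1 and near Ifi44, and none in cDC2.

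Genes of the machinery that HDAC1 belongs to had 5 of 305 sites gained in cDC1 (1.64%) and 3 in cDC2 (0.984%). Hdac9, a class IIa deacetylase, had 3 in cDC1, Hdac7, another class IIa enzyme, 1, and Suds3, a subunit of the Sin3 complex, 1. Hdac8 and the CoREST subunits Rcor1 and Rcor2 had 1 each in cDC2. The Hdac7 site (chr15:97837715-97837853) had 7.73 and 10.3 in KO cDC1, none in WT cDC1 and 8.85, 5.74, 12.6 and 10.7 in cDC2. Acetyltransferases and acetyl readers had 2 of 132 in cDC1 (1.52%), at Kat6b and Ncoa1, and none in cDC2. Cell cycle genes had 4 of 248 in cDC1 (1.61%), at Ccne1, Ccnd3 and Rb1, and 6 in cDC2 (2.42%), at Btg1, Cdk6, E2f2, Rb1 and Cdkn1c. The shares of these 3 lists ran from 0 to 2.42%, against 1.83% and 1.85% of all sites.

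Markers of other cells of the spleen were also counted. The plasmacytoid dendritic cell list had 7 of 147 sites gained in cDC2 (4.76%, against 1.85%) and 1 in cDC1 (0.68%, against 1.83%). They lay at Runx2 with 3, and at Spib, Lag3, Ccr9 and Tlr7 with 1 each, and Lag3 was gained in cDC1 too. Besides the strong site given above, Runx2 had 7.24 and 8.41 at chr17:44540901-44540944 and 4.69 and 5.97 at chr17:44693787-44693789 in KO cDC2, with no deposited summit at either in the other 6 libraries. The summed number of sites of this list with a summit was 89 in each KO library of cDC2 and 91 and 84 in the WT libraries, so the groups overlapped, and Siglech, a defining gene of these cells, had 4, 5, 4 and 4. The part of such cells in the result was not tested.

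The other lists had 0 to 4 gained sites in a subset, so that 1 site moves their share far, and several shares lay above the 1.83% (cDC1) and 1.85% (cDC2) of all sites. Monocyte and macrophage genes had 4 of 124 in cDC1 (3.23%), at Csf1r with 2, C1qc and Adgre1, and 1 in cDC2 (0.806%), and their sites with a summit numbered 73 and 75 in WT cDC1 and 73 and 71 in KO cDC1. C1qc, a chain of the first complement component, had 4.75 and 13.8 in KO cDC1 close to its start site (chr4:136892949-136893149), 4.6 and 4.31 in KO cDC2 and no deposited WT summit. B cell genes had 4 of 132 in cDC1 (3.03%), at Ebf1, Bach2 and Pax5, and 1 in cDC2 (0.758%), with 66 and 69 sites holding a summit in WT cDC1 and 66 and 64 in KO cDC1. Granulocyte genes had 3 of 40 in cDC1 (7.5%), 2 at Ltf and 1 near S100a9, and none in cDC2, with 17 and 19 in WT and 19 and 23 in KO cDC1. NK cell genes had none in cDC1 and 2 of 42 in cDC2 (4.76%), at Eomes and Prf1, with 24 and 28 in WT and 27 and 27 in KO cDC2. T cell genes had 2 of 88 in each subset (2.27%), at Tcf7, Bcl11b and Ctla4. Their sites with a summit numbered 40 and 37 in WT against 45 and 53 in KO cDC2, without overlap, and 44 and 39 in WT against 48 and 43 in KO cDC1. Erythroid genes (22 sites) and housekeeping genes (67 sites) had none in either subset. The part of other cells in these counts was not tested.

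The labels were checked where the lists allow it. Cd8a, carried by splenic cDC1, had summits at 6, 7, 5 and 6 of its sites in the cDC1 libraries and 0, 0, 0 and 1 in cDC2. Irf8 and Cadm1 also had more in every cDC1 than in any cDC2 library, and Zeb2, Clec4a4 and Dtx1 had the reverse. Itgam, which encodes the sort marker CD11b, did not separate the subsets, with 10, 7, 8 and 9 in cDC1 and 8, 10, 7 and 7 in cDC2. Sirpa overlapped at its limits, with 4, 3, 5 and 5 in cDC1 and 7, 5, 7 and 8 in cDC2. Xcr1 had no site assigned to it. Hdac1 (chromosome 4, 129516104 to 129542646) had 3 sites and none was gained. The one just beyond the upper end of the gene (chr4:129542765-129542834) had a summit in all 8 libraries at ranks 2350 to 8505. A summit there does not test the deletion, whose extent is not given in the sources used here. The deposited lists held 61737 to 96031 summits, the depth of the libraries is unknown, and the list of KO cDC1 replicate 2 was the longest.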

How the data were processed

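ATAC-seq summits of 8 libraries were analysed, 2 each of WT and KO cDC1 and cDC2, grouped by the sample titles. Per the submitters' processing notes, the tools were MACS2, Bowtie2, MultiQC and SAMtools, and the build was GRCm38 (mm10). Their versions, filters and peak settings are not given in the sources used here. The deposited score of a summit is a −log10 value per peak, taken as that of the q-value because its lowest value was 1.3 to 1.36 in every library. Scores rise with depth, which is unknown, so they served to rank summits within a library, and no counting interval could be given.

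With Python 3.11.15, numpy 2.4.6 and pandas 2.3.3, the 61737 highest-scored summits per library were chained within 250 bp. The rule and the distance search were tested on simulated data. Each site took the closest gene span among 21900 protein-coding genes of GRCm38.p6, up to 50 kb away. Promoters are RefSeq windows, which lack some genes and all of chromosome 18. Scores printed for a site are those of the best deposited summit within 250 bp. Shares in the subset not used were tested with exact permutation tests over libraries. No pairing of libraries by replicate number was seen: the difference between replicates 1 and 2 correlated at -0.00425 to 0.0259 across sites between groups. Such low correlations cannot tell whether libraries with the same number share an animal or a batch.

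Sites, 16 gene lists and tests were chosen with earlier results of these data known. Genes were named by this rule: genes with 2 or more gained sites of a subset, the 10 best-ranked sites of each subset, up to 15 sites gained in both, up to 5 sites per list, sites at the limits of the rule, sites on promoter windows, and Hdac1. A selection of these is printed. Cdkn1c, Ccr9 and Cd8a are named to complete counts, and the sites of opposite direction were chosen after their values were seen. 3 list genes were not in the annotation. Alternatives were other list lengths, a score limit, chaining and distance settings, leaving out each library and pairing by number.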

Additional observations from a re-analysis of the deposited data

Results flagged for a closer look

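Sites that moved in opposite directions in the 2 subsets were picked out, because every library of a subset went one way and every library of the other the opposite way. There were 22 sites gained in KO cDC1 and lost in KO cDC2, and 29 lost in KO cDC1 and gained in KO cDC2. The 22 are 1.07% of the sites gained in cDC1, where 1.27% of all sites were lost in cDC2, and the 29 are 1.39% of the sites gained in cDC2, where 1.67% of all sites were lost in cDC1. Mixed pairs of libraries had 18 to 25 sites in common between the subsets. Both shares of opposite sites thus lay below those of all sites. Sites of the same direction numbered 79 (gained) and 50 (lost). The difference between the subsets was not tested.

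Ccdc186 led the first group by mean rank (chr19:56801408-56801488), ranked 44877 and 38261 by KO cDC1, with 30996 and 44160 for WT cDC2, and with no kept summit in WT cDC1 or KO cDC2. Cpeb3, a regulator of translation, led the second (chr19:37172926-37172984), with 38182 and 48377 in WT cDC1, 38616 and 35614 in KO cDC2 and none in the others. Ifi209, an interferon-inducible gene of the Ifi200 cluster, was also in the second group, with a site 3961 bp outside the gene (chr1:173626878-173626919), ranked 43717 and 40929 in WT cDC1 and 39581 and 43718 in KO cDC2.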

How the results depend on the processing

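The differences in share kept their direction under all 17 alternatives run for each. With settings other than leaving out a library they ranged from 7.57 to 14.6 points for sites gained in cDC1, 7.12 to 15.3 for sites gained in cDC2 and 7.34 to 14.6 over both. Leaving out 1 library in turn gave 5.46 to 9.38, 4.4 to 9.08 and 5.88 to 8.06 points. None of these tests could pass 0.05. With KO and WT paired by number (replicate block, sign flips) the differences of 8.35, 8.24 and 8.29 points were unchanged by construction and the exact p-values were 0.5, 0.5 and 0.125, the smallest possible.

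The counts depended more on the settings. In cDC1 there were 1092 gained sites with lists of 0.5 times the length, 3576 with all deposited summits and 805 when the 1 kb distance was measured to all deposited WT summits. In cDC2 there were 1019 with lists of 0.5 times the length, 3616 with all deposited summits, 3318 at a score of at least 5 and 1314 with a distance of 5 kb. Leaving out 1 library in turn gave 2050 to 6627 in cDC1 and 2080 to 6970 in cDC2. The counts were highest without replicate 1 of the KO group of the same subset (6627 and 6970), since a single KO library then decides, and lay between 4151 and 4930 without a WT library of that subset. Within 500 bp of a gene end were 5.69% of all gained sites, against 8.41% within 1 kb, and 2401 genes had a gained site within 10 kb, against 2913 within 50 kb.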
